A study of Mus musculus with 24 samples.

Results

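The genes described here are 10 Krüppel-like factors of the mouse heart, Klf2, Klf3, Klf4, Klf5, Klf6, Klf7, Klf10, Klf11, Klf12 and Klf13. They were chosen by symbol from the family members outside the better known glucocorticoid-responsive pair Klf9 and Klf15, and each matched 1 of the 52350 gene rows of the count files. Other members outside that pair, among them Klf8 and Klf16, are not in the 10 and are counted below with the rest of the family. No measured value entered the rule itself. All 10 passed the filter on low counts and were among the 15294 genes tested.

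The study asked how the response of the heart to running depends on the time of day. The 24 mice, male wild-type C57Bl/6 at 12 weeks of age, gave 1 heart each and were housed in 12 h of light and 12 h of darkness and accustomed to the treadmill. There were 4 groups of 6 mice. The ZT0-SED and ZT12-SED mice were sedentary, and the ZT0-EX and ZT12-EX mice ran a single bout of 60 min at 10 m/min on a 0% grade. Zeitgeber time (ZT) is read from lights on, so ZT0 opens the rest phase of a mouse and ZT12 its active phase. No source used here states how long after the bout the hearts were taken. Poly-A-selected RNA of each heart was sequenced, replicates 1 to 3 of every group on flow cell 1 and replicates 4 to 6 on flow cell 2. No group carried a transgene or a deletion.

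Krüppel-like factors are transcription factors with zinc fingers at the carboxyl end that bind GC-rich and CACCC-type promoter elements. The amino-terminal part sets what a member does there. Klf2, Klf4, Klf5, Klf6 and Klf7 mostly activate genes. Klf3 and Klf12 recruit the CtBP corepressor, and Klf10, Klf11 and Klf13 bind the Sin3A corepressor. In the vessel wall, laminar flow raises Klf2 and Klf4 through the MEK5-ERK5 kinases and MEF2 factors. Klf10 and Klf11 are early genes of the TGF-beta response.

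Library totals ran from 9697334 to 23067191 counts, so a count of 3 stood for 0.13 to 0.575 CPM (counts relative to the library total after TMM scaling). Hearts were checked by their defining genes: all 8 cardiomyocyte markers listed (among them Myh6, Tnnt2 and Ryr2) were expressed, with a summed level of 30362 to 196292 CPM. GC content, mitochondrial counts and skeletal muscle transcripts touch the results. For ZT12-SED on flow cell 1, a gene's deviation followed its GC content closely (Spearman's rho across genes from -0.821 to -0.765), whereas on flow cell 2 it ran the other way in all 12 libraries (0.441 to 0.7). Mitochondrially encoded genes took from 2.70% of the counts in ZT12-EX replicate 4 to 55.1% in ZT12-SED replicate 2. Skeletal muscle transcripts were high in 6 libraries, replicates 4 to 6 of ZT0-EX and replicate 6 of each other group. In whole tissue, fewer cells of a type and less RNA per cell cannot be told apart.

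Promoter windows are shown for Klf4, Klf6 and Klf11, whose ZT0-SED and ZT0-EX libraries did not overlap, and for Klf13, which passed the test between the times of day. Each is the 250 bases before the annotated start, read 5′ to 3′ on the gene's strand from RefSeq's table for GRCm38.p6, which held 8 of the 10 genes. Klf4 lies at chr4:55532476-55532725 on the minus strand, Klf6 at chr13:5861239-5861488 on the plus strand, Klf11 at chr12:24651121-24651370 on the plus strand and Klf13 at chr7:63938916-63939165 on the minus strand. Capitals mark CACGTG, the E-box that clock factors and other basic helix-loop-helix proteins bind, and TGACG, the core of the cyclic AMP response element, on either strand.
Klf4: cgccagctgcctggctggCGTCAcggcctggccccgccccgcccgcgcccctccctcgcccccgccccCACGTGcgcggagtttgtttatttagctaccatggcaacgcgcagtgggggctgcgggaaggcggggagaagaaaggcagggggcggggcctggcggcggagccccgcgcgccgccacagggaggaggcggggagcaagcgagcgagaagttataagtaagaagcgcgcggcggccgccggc
Klf6: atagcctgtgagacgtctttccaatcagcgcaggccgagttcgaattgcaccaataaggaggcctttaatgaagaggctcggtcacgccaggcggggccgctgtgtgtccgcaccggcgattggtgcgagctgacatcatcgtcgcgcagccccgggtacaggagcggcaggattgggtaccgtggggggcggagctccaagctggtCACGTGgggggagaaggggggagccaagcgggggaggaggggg
Klf11: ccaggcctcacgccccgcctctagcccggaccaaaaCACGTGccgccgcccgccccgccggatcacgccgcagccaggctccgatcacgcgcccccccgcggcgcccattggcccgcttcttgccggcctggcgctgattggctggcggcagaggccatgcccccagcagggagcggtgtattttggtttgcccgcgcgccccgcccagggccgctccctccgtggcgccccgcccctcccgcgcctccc
Klf13: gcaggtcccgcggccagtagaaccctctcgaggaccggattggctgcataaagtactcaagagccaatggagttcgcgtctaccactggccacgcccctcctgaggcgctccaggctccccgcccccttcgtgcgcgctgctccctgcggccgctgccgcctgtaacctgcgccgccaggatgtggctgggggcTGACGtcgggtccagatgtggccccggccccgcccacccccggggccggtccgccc

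The E-box CACGTG was present in the windows of Klf4, Klf6 and Klf11, beginning 182, 43 and 214 bases before the start, and in none of the other 5 windows read. The same letters stood in 6.02% of 32851 promoter windows of this length, and in 9.32% of the 9178 windows with at least 60% GC, a class to which the windows of Klf4 (74%), Klf6 (64.8%) and Klf11 (76.8%) belong. TGACG was found in Klf2, Klf4, Klf12 and Klf13 (17.8% of all windows; 27.1% of GC-rich windows), the Sp1-type box GGGCGG in 7 of 8 (32.7%; 76.5% of GC-rich windows) and CCACCC in 4 of 8 (28.1%; 39.8%). TATAAA was found in Klf12 alone of the 8 (12.4%; 2.58%), whose window has 48% GC. The full element TGACGTCA (1.55%), TTATGNAA, a D-box form (3.07%), and the CArG box (1.47%) had no match. Both strands were searched, TGACG also lies inside TGACGTCA, and a match is a stretch of letters, not a measured binding site.

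**Figure D1:**
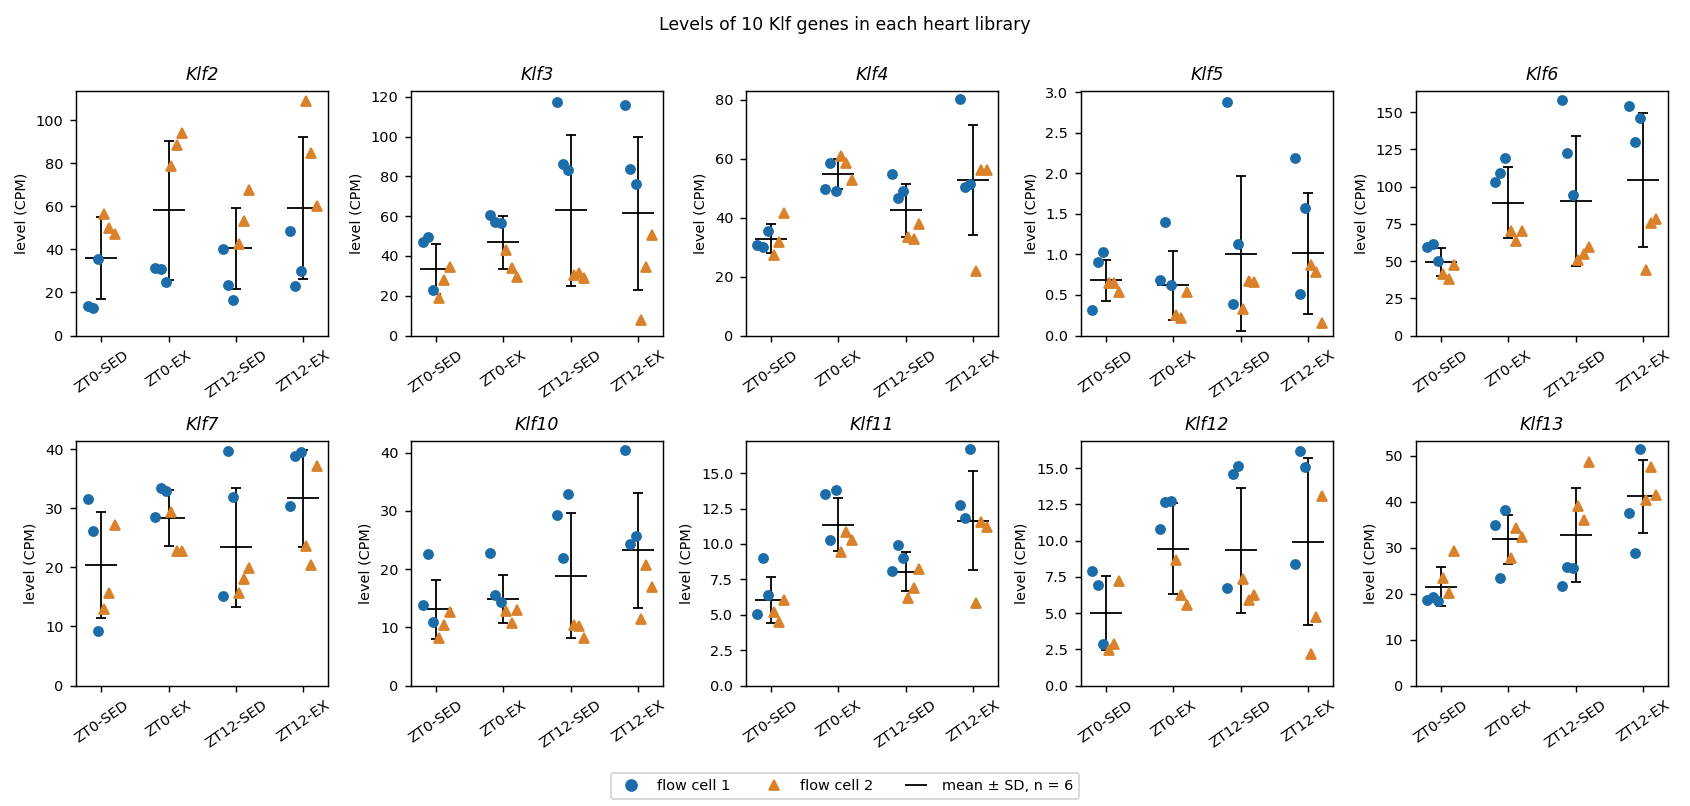
Level of each Klf gene in CPM (y axis from 0, own scale per gene) in the 4 groups (x axis), with 1 point per mouse, circles for flow cell 1 and triangles for flow cell 2, and the bar and whiskers for the mean ± SD of 6 mice. Klf6 on flow cell 1 lies above flow cell 2 in each group, Klf2 lies below it, and Klf4, Klf6 and Klf11 show no overlap between ZT0-SED and ZT0-EX.

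Per kilobase of exon, Klf2 was the most abundant member with a mean of 26.3 CPM per kb over the 24 libraries, followed by Klf6 with 19.0 and Klf4 with 15.0. A gap separated these from Klf3 (4.55), Klf13 (4.23), Klf10 (4.19), Klf7 (3.19) and Klf11 (2.14), and Klf12 (1.21) and Klf5 (0.160) came last. Klf4 lay above Klf3 and Klf12 above Klf5 in 24 of 24 libraries, and Klf11 above Klf12 in 23. Each neighbouring pair from Klf3 down to Klf7 differed by less than the SD of either gene across libraries. Klf7 and Klf11 differed by less than the SD of Klf7 but more than that of Klf11, and Klf7 lay above in 22 of 24 libraries. Klf2 and Klf6 differed by less than the SD of either, as did Klf6 and Klf4, and the order within these pairs turned on the flow cell. Klf2 exceeded Klf6 in 1 library of 12 on the first flow cell, and in 12 of 12 on the second.

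The shift between flow cells was large for several members. Mean log2 CPM on flow cell 2 was 1.37 higher than on flow cell 1 for Klf2, whose exons are 61.6% GC, a share above that of 98.2% of the genes tested. It was 1.20 lower for Klf3 (log2 difference -1.20), and -0.86 for each of Klf6, Klf10 and Klf12. Klf6 has 42.4% GC, lower than most genes (percentile 14.2). Klf4 (-0.22) and Klf13 (0.32) moved least. Once group and flow cell were taken out, Klf6 (residual SD 0.239 log2) and Klf13 (0.249) were among the steadier genes, against a median of 0.405 over all genes tested, and Klf5 was the noisiest of the 10 (0.797). The flow cell was a term of the fit, and values on each flow cell are given beside the results.

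At ZT0, running raised Klf6 and Klf11. Klf6, a zinc-finger activator induced by tissue injury and vascular stress, rose 1.75-fold, and Klf11, a TGF-beta-inducible factor that recruits Sin3A and is also known as a regulator of metabolic genes, rose 1.89-fold. These were 2 of 10 members. Of the 15294 genes tested, 1.08% passed an adjusted p of 0.05 in either direction, and 0.791% of the genes tested passed as higher. The fitted log2 fold change of 9 of the 10 members lay above 0 (median 0.61, against -0.01 over all genes tested).

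Klf6 in ZT0-SED ranged from 38.2 to 61.7 CPM with a median of 48.8, and in ZT0-EX from 63.7 to 119 with a median of 86.8. Every exercised heart lay above every sedentary one, on both flow cells together. The log2 fold change was 0.81 ± 0.17 (SE, n = 6 mice per group, adjusted p = 0.0151, edgeR's quasi-likelihood test). Klf11 ranged from 4.48 to 9.03 CPM in ZT0-SED (median 5.64) and from 9.42 to 13.8 in ZT0-EX (median 10.6), again without overlap. Its log2 fold change was 0.92 ± 0.17 (adjusted p = 0.00539). Groups that do not overlap, in the higher direction, were found for 0.987% of the genes tested.

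Klf4, which flow raises in endothelium and which also governs smooth muscle identity, showed the same separation without passing the threshold. It measured 27.4 to 41.4 CPM in ZT0-SED (median 31.2) and 48.9 to 60.8 in ZT0-EX (median 55.7), and the log2 fold change was 0.75 ± 0.20 (adjusted p = 0.0769, n = 6 per group). DESeq2 called it (adjusted p = 0.0141), as did the fit to the ZT0 groups alone (0.00226). It was also called with 2 surrogate variables and without the 3 libraries least correlated with the rest. These were 4 of 16 alternatives, and they called 1.75% to 3.33% of all genes, against 1.08% in the fit reported. With 1 library left out in turn, Klf4 was called in 1 of 12 fits.

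Klf2, the main transducer of laminar flow in endothelium, measured 12.9 to 56.7 CPM in ZT0-SED (median 41.5) and 25.0 to 94.3 in ZT0-EX (median 55.1). The groups overlapped on flow cell 1, where replicate 3 of ZT0-SED (35.6 CPM) exceeded all 3 exercised hearts, and not on flow cell 2, where the sedentary hearts measured 47.3 to 56.7 and the exercised hearts 78.7 to 94.3. On that flow cell 11.1% of all genes tested were higher in ZT0-EX without overlap. The fitted log2 fold change of 0.63 ± 0.25 did not pass (adjusted p = 0.367).

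Among the corepressor-binding members, Klf13, a factor known from lymphocytes and heart development, measured 18.4 to 29.4 CPM in ZT0-SED (median 19.7) and 23.5 to 38.1 in ZT0-EX (median 33.3). Its log2 fold change was 0.58 ± 0.17 (adjusted p = 0.139). It was called in 2 of 16 alternatives, by DESeq2 and in the fit to the ZT0 groups alone. Klf12 had a log2 fold change of 0.86 ± 0.33, the second largest of the 10, with an adjusted p of 0.362, and its libraries ran from 2.44 to 7.88 CPM in ZT0-SED and from 5.56 to 12.7 in ZT0-EX. Klf3 (0.46 ± 0.31, adjusted p = 0.57), Klf7, a neuronal growth factor regulator (0.46 ± 0.25, 0.518), and Klf10 (0.20 ± 0.22, 0.723) did not pass. Klf5, known for smooth muscle remodelling, was near the floor of detection at 0.159 to 2.88 CPM over the 24 libraries (2 to 41 counts) and had a log2 fold change of -0.23 ± 0.45 (adjusted p = 0.839).

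For Klf6, Klf11, Klf4 and Klf2 the direction was the same on both flow cells, whereas Klf5 had 0.28 on the first and -0.74 on the second. Differences of mean log2 CPM on flow cells 1 and 2 were 0.96 and 0.69 for Klf6, 0.89 and 0.95 for Klf11, 0.70 and 0.79 for Klf4, and 0.65 and 0.76 for Klf2. Skeletal muscle markers had a median log2 difference of 0.18 on the first flow cell and 4.10 on the second. Summed endothelial markers (8 genes, such as Pecam1 and Cdh5) spanned 728 to 916 CPM in ZT0-SED and 718 to 854 in ZT0-EX, and none of the 8 passed. Neither call was made on a single flow cell (adjusted p = 0.113 for Klf6 and 0.313 for Klf11 on flow cell 1, 0.501 and 0.357 on flow cell 2), without the flow cell term (0.547 and 0.0622), with library totals in place of TMM (0.0685 and 0.127), or without the 6 libraries with skeletal muscle transcripts (0.441 and 0.266), which leaves ZT0-EX on flow cell 1 only. Without a filter on low counts Klf6 was lost (0.0629) and Klf11 was called (0.022).

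**Figure D2:**
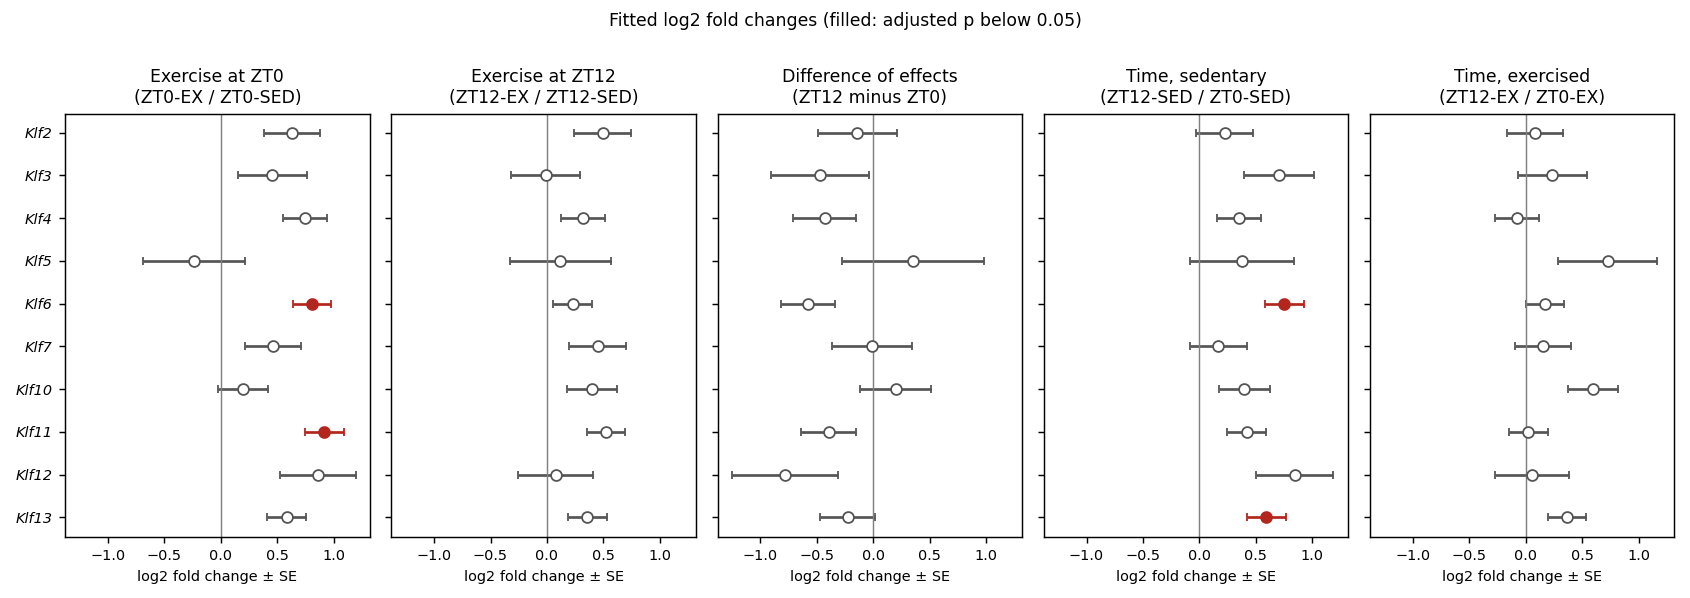
Fitted log2 fold change ± SE (x axis) of the 10 Klf genes (y axis) in the 5 comparisons, filled and red where the adjusted p was below 0.05. Klf6 and Klf11 are filled for exercise at ZT0, Klf6 and Klf13 for time of day in sedentary mice, and none in the other 3 panels.

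At ZT12 no Klf gene passed the test for exercise, where 0.294% of all genes did (45 genes). Klf11 and Klf13 were under an unadjusted p of 0.05, as were 16.4% of all genes, and DESeq2 and limma-voom called none of the 10. Klf11 measured 6.16 to 9.90 CPM in ZT12-SED (median 8.15) and 5.84 to 16.7 in ZT12-EX (median 11.7), with a log2 fold change of 0.52 ± 0.17 (adjusted p = 0.203, n = 6 per group). The groups overlapped through 1 heart, ZT12-EX replicate 4, the lowest of the 12; the other 5 exercised hearts, from 11.2 CPM up, lay above every sedentary heart.

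Klf6 measured 50.5 to 158 CPM in ZT12-SED (median 77.1) and 43.8 to 154 in ZT12-EX (median 104), a log2 fold change of 0.23 ± 0.17 (adjusted p = 0.471). Against ZT0-EX, the ZT12-SED mean was higher on the first flow cell (125 against 111 CPM), while on the second the ZT12-SED hearts (50.5 to 59.8) all lay below the ZT0-EX hearts (63.7 to 70.4); this pair was not tested. Klf4 measured 32.9 to 54.7 CPM in ZT12-SED (median 42.2) and 22.0 to 80.1 in ZT12-EX (median 53.6; 0.32 ± 0.20, adjusted p = 0.397). Klf2 (0.49 ± 0.25, 0.32), Klf7 (0.45 ± 0.25, 0.36), Klf10 (0.40 ± 0.22, 0.363) and Klf13 (0.36 ± 0.17, 0.303) had values above 0 that did not pass, and Klf12 (0.08), Klf5 (0.12) and Klf3 (-0.01) lay near 0.

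ZT12-EX replicate 4 was the lowest heart of its group for Klf3 (7.89 CPM against 34.3 for the next), Klf4, Klf6, Klf10, Klf11 and Klf12. For Klf2 it was the highest of the 24 (109 CPM), and for Klf5, Klf7 and Klf13 it lay inside the range of its group. In the same library the cardiomyocyte markers summed to 196292 CPM, the highest of the 24, and mitochondrial counts were lowest; the part of either in these values was not tested. Without it, the log2 fold changes were 0.64 for Klf11 (adjusted p = 0.0569), 0.47 for Klf4 (0.193) and 0.34 for Klf6 (0.315). With an offset for GC content Klf6 was called (0.49, adjusted p = 0.0175), and likewise with 2 surrogate variables (0.51, 0.00254) and without the 3 libraries least correlated with the rest (0.59, 0.0391). Those fits called 0.386%, 1.23% and 0.3% of all genes. With GC offsets Klf2 stood at -0.15 and Klf4 at -0.05, on the other side of 0.

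The exercise effects at the 2 times of day were also compared directly, by subtracting the effect at ZT0 from that at ZT12. No Klf gene passed, nor did any of the 15294 genes (0%) in edgeR or limma-voom; DESeq2 called 5 genes, none of them a member, and 1226 genes (8.02%) had an unadjusted p under 0.05. Klf6 was the member among those, with a difference of -0.58 ± 0.24 log2 (95% interval -1.08 to -0.08, adjusted p = 0.571). For Klf11 the difference was -0.39 ± 0.24 (-0.89 to 0.11) and for Klf4 -0.43 ± 0.28 (-1.004 to 0.15). The calls at ZT0 and their absence at ZT12 do not by themselves show that the effects differ. Over the 10 members, 8 differences were below 0 (median -0.31, against 0.01 over all genes), a number that fell to 5 without the 3 least correlated libraries, to 6 with library totals in place of TMM and to 6 with 2 surrogate variables.

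Between the times of day in sedentary mice, Klf6 and Klf13 were higher at ZT12 than at ZT0, 1.68-fold and 1.51-fold. They were 2 of 10 members, where 5.2% of all genes passed and 2.46% passed as higher. All 10 members had a log2 fold change above 0 (median 0.41, against -0.01 over all genes), though 7 did on flow cell 2 alone (median 0.11), 8 with 2 surrogate variables (0.15), and 8 with library totals in place of TMM (0.21), which brought the median of all genes to -0.18. With GC offsets, and without the 3 least correlated libraries, 9 did.

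Klf6 measured 38.2 to 61.7 CPM in ZT0-SED and 50.5 to 158 in ZT12-SED, for a log2 fold change of 0.75 ± 0.17 (adjusted p = 0.0129, n = 6 per group). Over both flow cells the groups overlapped, but on each flow cell every ZT12 heart lay above every ZT0 heart. On flow cell 1 Klf6 measured 50.2 to 61.7 CPM at ZT0 and 94.3 to 158 at ZT12, a log2 difference of 1.11. On flow cell 2 it measured 38.2 to 47.3 and 50.5 to 59.8, a difference of 0.38. The value was smaller on flow cell 2, as it was with GC offsets (0.37, adjusted p = 0.0332), with 2 surrogate variables (0.38, 0.0111) and with library totals (0.52, 0.135).

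Klf13 showed the opposite pattern over the flow cells. On flow cell 1 it measured 18.4 to 19.2 CPM at ZT0 and 21.7 to 25.9 at ZT12 (log2 difference 0.37), and on flow cell 2 it measured 20.1 to 29.4 and 36.2 to 48.6 (0.77). On each flow cell the groups did not overlap. The log2 fold change of 0.59 ± 0.17 lay just inside the threshold (adjusted p = 0.047), and GC offsets raised it to 1.07 (0.000513). Klf13 has 55.5% GC and Klf6 42.4%. The part of GC content in the pattern over the flow cells was not tested beyond the offsets. Genes higher at ZT12 without overlap made up 24.3% of all genes on the first flow cell, and 6.6% on the second.

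The call of Klf13 was lost when any of 10 of the 12 libraries was left out (ZT0-SED replicates 1 to 5 and ZT12-SED replicates 2 to 6), with adjusted p-values up to 0.112, with the replicate block (0.0528) and with library totals (0.293). Both calls were lost without the flow cell term (adjusted p = 0.257 for Klf6 and 0.211 for Klf13), without a filter (0.0673 and 0.147), on flow cell 2 alone (0.999 and 0.242) and in the fit to both sedentary groups alone (0.0632 and 0.0894).

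The other members did not pass, and for most of them the larger part of the difference lay on flow cell 1. Klf3 had a log2 fold change of 0.71 ± 0.31 (adjusted p = 0.121), with 1.32 on flow cell 1, where the ZT0 hearts measured 22.9 to 49.8 CPM and the ZT12 hearts 83.4 to 118, and 0.20 on flow cell 2. Klf10, a gene under circadian control in liver, had 0.87 on the first flow cell against -0.09 on the second (0.40 ± 0.23 in the fit, adjusted p = 0.214). Klf4 had 0.64 and 0.07 (0.35 ± 0.20, 0.211). The exceptions are Klf11 with 0.43 on both (0.42 ± 0.17, 0.107) and Klf12 with 1.07 and 0.79 (0.84 ± 0.34, 0.0975). Klf12 was called by DESeq2 (adjusted p = 0.0478), with 2 surrogate variables (0.00597) and without the 6 libraries with skeletal muscle transcripts (0.0235). Those fits called 19.1%, 5.33% and 20.1% of all genes. The median over the 10 was 0.64 on the first flow cell against 0.13 on the second. A fit to flow cell 1 alone gave 5 calls, Klf3, Klf4, Klf6, Klf10 and Klf12, where it called 43.5% of all genes, and flow cell 2 gave 0; the GC content relation of the ZT12-SED libraries differs between the flow cells as described, and its part in these values was not tested beyond the GC offsets.

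**Figure D3:**
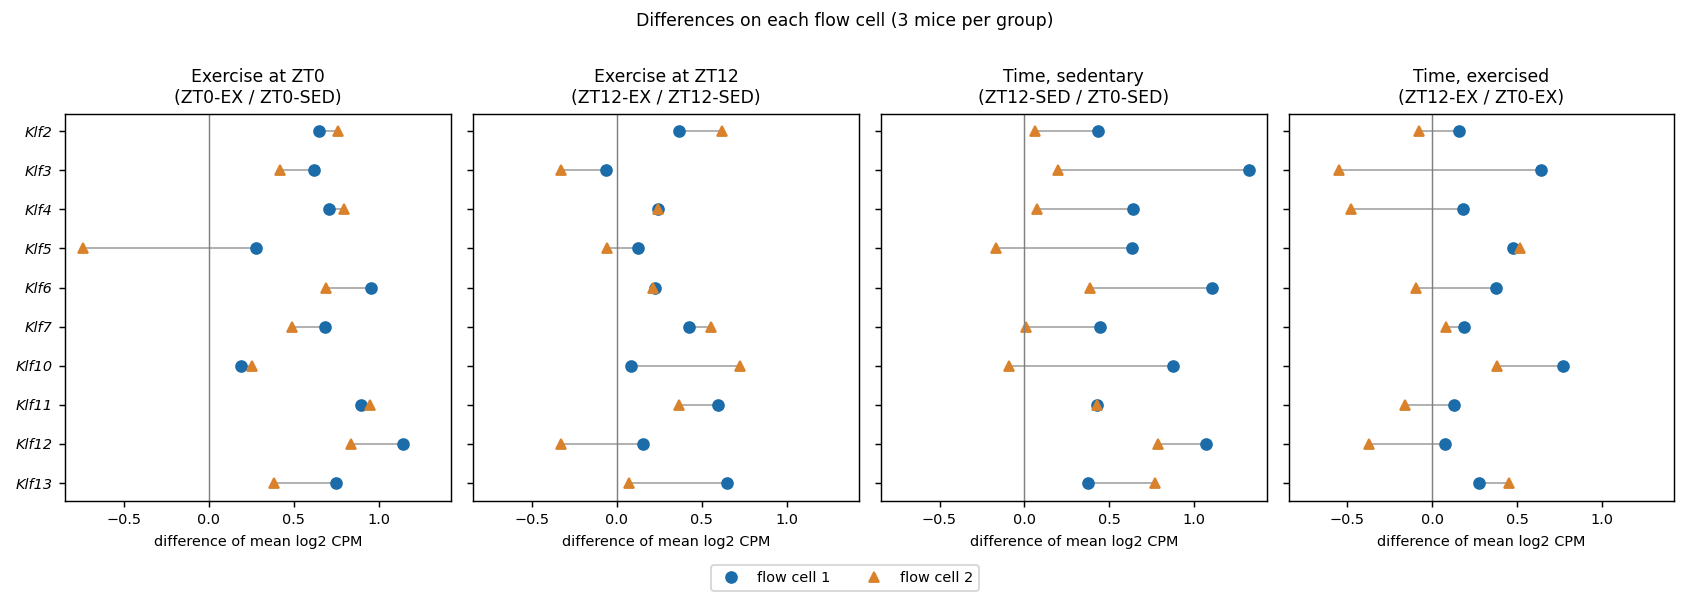
Difference of mean log2 CPM (x axis) for each Klf gene (y axis) in 4 comparisons, circles from the 3 mice per group on flow cell 1 and triangles from those on flow cell 2. For exercise at ZT0 the flow cells lie closer together for most genes, with Klf5 furthest apart. For time of day in sedentary mice they lie further apart for most, where Klf3 shows 1.32 against 0.20 and Klf10 0.87 against -0.09. There Klf11 shows 0.43 on both and Klf12 1.07 against 0.79.

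In exercised mice no Klf gene differed between ZT12 and ZT0 by the test, where 1.65% of all genes did. Klf10 and Klf13 were under an unadjusted p of 0.05, as were 14.3% of all genes, and DESeq2 and limma-voom called no member. Klf10 measured 10.7 to 22.8 CPM in ZT0-EX (median 13.7) and 11.5 to 40.4 in ZT12-EX (median 22.5), a log2 fold change of 0.60 ± 0.22 (adjusted p = 0.213). Klf13 measured 23.5 to 38.1 and 28.8 to 51.6 CPM (0.37 ± 0.17, adjusted p = 0.329) and was called with 2 surrogate variables, a fit that called 9.04% of all genes. Klf6 (0.17 ± 0.17), Klf11 (0.02 ± 0.17) and Klf4 (-0.08 ± 0.20) were near 0. The mean of Klf6 was 49.7 ± 9.44 CPM in ZT0-SED, 89.3 ± 23.98 in ZT0-EX, 90.1 ± 43.6 in ZT12-SED and 105 ± 45.0 in ZT12-EX (SD, n = 6). These SDs hold the shift between flow cells. On the first flow cell every ZT0-SED heart lay below every heart of the other 3 groups. On the second, ZT0-SED lay below ZT0-EX and ZT12-SED, and 1 heart of ZT12-EX (replicate 4, 43.8 CPM) fell within its range. The share of all genes with these patterns was not counted. For ZT12-SED above ZT0-SED alone it was 24.3% on the first flow cell and 6.6% on the second.

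**Figure D4:**
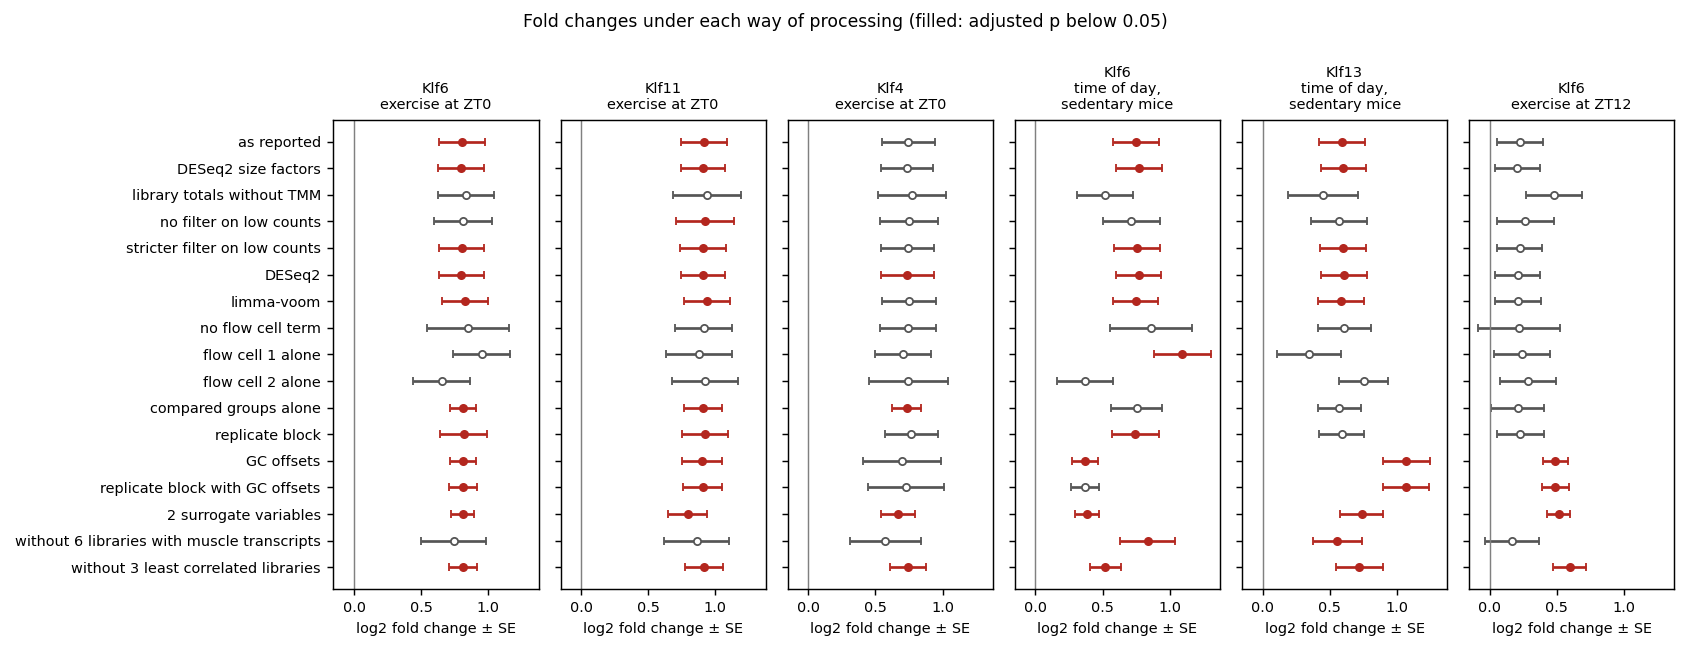
Log2 fold change ± SE (x axis) of Klf6, Klf11, Klf4 and Klf13 in 6 tests under each way of processing (y axis), filled and red where the adjusted p was below 0.05. The values for exercise at ZT0 stay between 0.57 and 0.95 throughout, while those for time of day in sedentary mice span 0.37 to 1.09 for Klf6 and 0.35 to 1.07 for Klf13.

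The rest of the KLF and SP family gave 8 genes with enough counts of 16. At ZT0 exercise raised Klf15 (1.40 ± 0.21 log2, adjusted p = 0.000317) and Klf9 (0.95 ± 0.24, 0.0485), factors of the glucocorticoid response, and the other 6 did not pass. In sedentary mice Klf9 (1.55 ± 0.24, 0.000366) and Klf15 (0.97 ± 0.21, 0.00761) were higher at ZT12, and Klf16 was lower (-0.67 ± 0.19, 0.0464). None passed for exercise at ZT12, for the difference of the effects or between the times in exercised mice. Over all genes tested, 1.08% passed for exercise at ZT0 and 5.2% for time of day in sedentary mice. Klf1, Klf14, Klf17 and Sp5 to Sp9 had at most 17 counts in a library.

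Genes around the Klf factors were taken from lists named for their routes. Of 8 genes of the flow and MEK5-ERK5 route, upstream of Klf2 and Klf4, 1 passed in any comparison. The kinase Map3k2 was higher at ZT12 in sedentary mice (0.70 ± 0.20 log2, adjusted p = 0.0465), a comparison in which 5.2% of all genes passed. Mapk7, which encodes ERK5, had -0.93 ± 0.29 there (0.0607), -2.42 on the first flow cell against -0.18 on the second, and 0.13 ± 0.28 for exercise at ZT0. Of the 9 genes of the TGF-beta route, upstream of Klf10 and Klf11, of the 9 corepressors and coactivators (Ctbp2 had 0.23 ± 0.12 for exercise at ZT0, adjusted p = 0.506) and of the ubiquitin ligases Wwp1 and Fbxw7, which target Klf2 and Klf5, 0 passed in any of the 5 comparisons.

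Of 5 endothelial genes that Klf2 and Klf4 are known to raise, 1 was higher after exercise at ZT0, where 1.08% of all genes passed, 0.791% of all genes as higher. That gene was S1pr1, the sphingosine-1-phosphate receptor of vessel lining (1.08 ± 0.25 log2, adjusted p = 0.0268), and it was higher at ZT12 in sedentary mice as well (0.93 ± 0.25, 0.0317). Nos3, the endothelial nitric oxide synthase, had 0.47 ± 0.27 for exercise at ZT0 (0.535), and Thbd, thrombomodulin, 0.13 ± 0.24 (0.833). The endothelial marker Egfl7 was lower at ZT12 in sedentary mice (-1.09 ± 0.31, 0.0416), 1 of 8 markers, with summed levels of 728 to 916 CPM in ZT0-SED and 452 to 786 in ZT12-SED; the part of this in the values above was not tested. Over all genes, 5.2% passed for time of day in sedentary mice. Among markers of other cells in that comparison, 1 of 7 of smooth muscle and pericytes (Acta2) and 1 of 7 of fibroblasts (Col1a1) were lower, with list medians of -0.52 and -0.16. Of 8 macrophage markers 2 were higher (Cd163 and Lyve1), while the median of the list was -0.18. For exercise at ZT0, 1 of 7 fibroblast markers, Tcf21, was lower (-0.94 ± 0.21, adjusted p = 0.027). Of 28 mitochondrially encoded genes tested, mt-Co3 was lower for exercise at ZT12 (-1.62 ± 0.34, 0.0321), where 0.294% of all genes passed. For time of day in sedentary mice 2 of the 28 were higher, with a list median of 0.69. The part of this in the Klf values was not tested.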

How the data were processed

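The deposited values were whole-number read counts per Ensembl gene, made by the authors with Trimmomatic 0.39, HISAT2 2.2.1 and featureCounts 2.0.1 on GRCm39, per the submitters' processing notes. No source used here gives their settings, annotation release or use of strand, so reads of Klf3, Klf7, Klf12 and Klf13, which overlap other annotated genes, are uncertain. Symbols were matched by Ensembl ID; 257 of 52350 IDs had none and held 0.00128% of counts. Library totals were 9697334 to 23067191 counts. No libraries of a group looked like 1 library deposited more than once (lowest chi-square per degree of freedom 14.1 over 60 pairs).

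Genes were filtered with filterByExpr, scaled by TMM and fitted in edgeR 4.0.16 (R 4.3.3; robust quasi-likelihood F test) to all 24 libraries with terms for group and flow cell, leaving 19 residual degrees of freedom. P-values were adjusted by Benjamini-Hochberg over 15294 genes, with 0.05 as the threshold. Single flow cell differences are of mean log2 CPM (prior count 2), and adjusted p-values named for 1 flow cell come from fits to it. Levels between genes are CPM per kilobase of annotated exon. The scripts were tested on simulated counts with changes placed in ZT0-EX only. The simulation held no flow cell shift and no GC content relation, so it cannot show how the fits handle these. Alternatives used DESeq2 1.42.0, limma-voom 3.58.1, sva 3.50.0 with 2 surrogate variables, and offsets for exon GC content. The labels call each sample a biological replicate. They do not say that replicate numbers pair the mice, so no pairing entered the fit. Counts of members are set beside the share of all genes called, with no test of the list.

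All 10 genes are named. Genes of the other lists are named where they passed in at least 1 comparison, up to 4 per list by smallest p, or were preselected (Klf9, Klf15, Nos3, Thbd, Ctbp2, Mapk7). Of the mitochondrially encoded genes that passed, only mt-Co3 is named. The members, lists and promoter motifs were chosen with earlier results of these data known. The list of endothelial genes lowered by Klf2 and Klf4 is not reported here.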

Additional observations from a re-analysis of the deposited data

Results flagged for a closer look

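Of 40 sets of 6 libraries (10 Klf genes in 4 groups), 1 held a library far from the others. Klf5 in ZT12-SED replicate 1 measured 2.88 CPM, and the next highest of that group was 1.13 CPM. The gap took 0.684 of the range of the group, above Dixon's critical value for 6 values. Chance gives such a gap in about 1 in 20 sets. Klf5 did not pass the test in any of the 5 comparisons.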

How the results depend on the processing

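Among the 10 Klf genes, the number called for exercise at ZT0 was 2. It was 4 with DESeq2 (1.75% of all genes called) and with the compared groups alone (2.83%), against 1.08% in the fit reported. It was 5 with 2 surrogate variables (3.33%), 3 without the 3 libraries least correlated with the rest (2.43%) and 1 without a filter on low counts (0.398%). It was 0 with library totals in place of TMM, without the flow cell term, on flow cell 1 alone, on flow cell 2 alone and without the 6 libraries with skeletal muscle transcripts. Those 0 counts came where 0.0857% to 0.556% of all genes were called. For exercise at ZT12 it was 0 (0.294% of all genes called), but 3 with 2 surrogate variables (1.23%). It was 1 with GC offsets (0.386%), 1 with the replicate block and GC offsets together (0.327%) and 1 without the 3 libraries least correlated with the rest (0.3%), Klf6 each time. For time of day in sedentary mice it was 2 (5.2% of all genes called), against 5 on flow cell 1 alone (43.5%). It was 3 (with Klf12) with DESeq2 (19.1%), with 2 surrogate variables (5.33%) and without the 6 libraries with skeletal muscle transcripts (20.1%). It was 0 with library totals, without a filter, without the flow cell term, on flow cell 2 alone and with the compared groups alone. Those fits called 0.231% to 1.69% of all genes. For time of day in exercised mice it was 0 (1.65% of all genes called), and 1 with 2 surrogate variables (9.04%). Klf3 for exercise at ZT12 turned from -0.01 to 0.39 with 2 surrogate variables. The cause of these changes was not tested. Leaving out 1 library in turn gave 2 to 3 calls for exercise at ZT0 (3 without ZT0-SED replicate 6, which added Klf4 at 0.85, adjusted p = 0.0452), 1 to 3 for time of day in sedentary mice (3 without ZT0-SED replicate 6, which added Klf12 at 1.15, 0.0284) and 0 for the other comparisons. Over all genes, these left-out libraries moved the calls from 165 to between 91 and 176 at ZT0, from 45 to between 22 and 77 at ZT12, from 795 to between 305 and 2808 (without ZT0-SED replicate 6) and from 252 to between 135 and 455 (without ZT12-EX replicate 4). Library totals in place of TMM shifted the median log2 fold change of all genes to 0.196 for exercise at ZT12 and to -0.178 for time of day in sedentary mice, and the share of calls that were higher went from 64.4% to 80% and from 47.3% to 29.5%. The fit of the compared groups alone cannot be made for the difference between the exercise effects, which uses all groups. Counts of 2 to 41 limit what can be seen for Klf5.

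With the replicate number as a block, 2 Klf genes were called for exercise at ZT0 (1.05% of all genes), 0 at ZT12, and 0 for the difference and in exercised mice. For time of day in sedentary mice the block gave 1 (Klf6, 3.98% of all genes). Block and GC offsets together also gave 1 there (Klf13, 3.28%). The numbers are not a pairing in the labels. Of 36 same-number pairs, 15 had a correlation of deviations over 0.1 (range -0.445 to 0.781). For each library, the best correlated library of the other groups on its flow cell was also found. It had the same number for 13 of 24 libraries. Each other group offered 3 libraries there, 1 of them with that number, so a share of such matches arises without pairing.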

Other observations

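Across the 24 libraries, after the mean of each flow cell was removed, the 45 pairs of Klf genes had a median Pearson correlation of log2 CPM of 0.454, from -0.438 to 0.811. The highest was between Klf4 and Klf6, and 38 of the 45 were positive. These correlations share libraries, groups and scaling, and are given as a description.

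Of 11247 genes compared in the same way, those most like Klf6 were Stk17b (r = 0.92), Sgms1 (0.905) and Fam117b (0.896). Those most like Klf11 were Txnip (0.888), which encodes thioredoxin-interacting protein, Rasgef1b (0.87) and Enc1 (0.865). Those most like Klf13 were Jade2 (0.911), Fkbp5 (0.875), a chaperone of steroid receptors, and Map3k6 (0.855). The 3 genes most like Klf6 have 39% to 47.5% GC in their exons, as Klf6 does (42.4%), and those most like Klf13 have 51.6% to 59.5%, near the 55.5% of Klf13. The part of GC content in these likenesses was not tested.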
